A study of Mus musculus with 7 samples.

Results

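The genes examined here were 42 sarcomere, calcium-handling and cardiac genes, of 55401 genes in the table of counts, measured in the lung. They were chosen by name, with the difference between BLM and BLM+HBO in these same mice already known, so that difference is given for them as a description. Male C57BL/6 mice, 6 to 8 weeks of age, were all given bleomycin, an antibiotic used in mice to bring on lung injury and fibrosis. From day 7 the BLM+HBO mice (n = 3) breathed hyperbaric oxygen (HBO), pure oxygen under pressure, at 2.5 ATA for 90 min a day on 14 consecutive days. The sample records place the BLM mice (n = 4) in the chamber without pressurised oxygen, whereas the study's methods describe them as untreated. Lungs were collected on day 21. By the study's methods the RNA came from the right lobes, and there was 1 RNA-seq library per mouse. No saline or normal lung was sequenced in these 7 libraries.

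Striated muscle contracts by thick filaments of myosin sliding on thin filaments of actin, held in register by titin, the Z-disc and the M-band, and is switched on by calcium released from the sarcoplasmic reticulum. Heart and skeletal muscle use different members of the same protein families, and within the heart the atria and ventricles differ in their myosin light chains and calcium pump inhibitors. The lung is not a striated muscle organ, but in rodents sleeves of atrial-type heart muscle extend from the left atrium along the pulmonary veins into the lung. The heart itself also lies against the lung lobes. In bulk tissue, fewer cells of a type cannot be told apart from less RNA per cell.

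Lung identity was clear in all libraries. The 12 lung markers summed to 16104 to 29558 CPM in the BLM mice and 22960 to 47797 CPM in the BLM+HBO mice, with Sftpc, the surfactant protein of alveolar type 2 cells, at 4549 CPM or more. Library totals lay between 18157161 and 26365969 counts, and BLM+HBO 3 was the deepest. Each library counted as 1 replicate, and the spread between them is that between mice. Nothing in the labels gives a dissection, extraction or sequencing batch.

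Striated muscle transcripts were detected in every mouse. Of the 42 genes, 40 had enough reads to be tested, and Myl2 and Trim63 did not. Smpx, Xirp2 and Fbxo40 had fewer than 10 reads, the minimum of the filter, in every BLM mouse and so were tested only through the BLM+HBO mice, and another 6 reached 10 reads in only 1 or 2 BLM mice. With edgeR's quasi-likelihood test, 31 of the 40 were higher in BLM+HBO at the thresholds of the study (fold change above 1.5, P below 0.05 before adjustment), against 3.4% of the 17465 genes tested. One gene, Acta1, was lower at these thresholds, against 2.89% of the genes tested, and 8 passed in neither direction. The log2 fold change was above 0 in 38 of the 40, with a median of 1.82, where all tested genes had a median of 0.01 and 51.2% lay above 0. Of the 31 genes with 10 reads in 3 or 4 BLM mice, 23 were higher. Since the genes were listed with this contrast known, nothing is read from these shares.

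At a Benjamini-Hochberg adjusted P below 0.05 edgeR called 0 of the 17465 genes (0.0%) and thus 0 of the 40. The lowest adjusted P of any gene by edgeR was 0.423. At an unadjusted P below 0.05 there were 1861 genes in all and 32 of the 40. DESeq2 called 14 of the 40 at an adjusted P below 0.05, all of them higher, against 0.361% of the 16886 genes to which it gave an adjusted P. Without a filter on low counts edgeR called 27 of the 42 at an adjusted P below 0.05, all of them higher, against 0.465% of the 32896 genes then tested. The CPM values of the groups did not overlap for 12 of the 40 that were higher in BLM+HBO, against 4.05% of all tested genes, and for 1 that was lower, against 4.72%. Smpx, Xirp2 and Fbxo40, which passed the filter only through the BLM+HBO mice, are among the 12 and among the 14 by DESeq2. Nothing is read from these shares either.

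The BLM+HBO mice were not alike. BLM+HBO 1 and BLM+HBO 2 each lay above every BLM mouse in all 31 genes that passed as higher, whereas BLM+HBO 3 did so in 12 of the 31. BLM+HBO 3 was the lowest of its group in 38 of the 40 genes, and BLM+HBO 1 the highest in 31. Among the BLM mice, BLM 4 was the highest in 24. The median log2 CPM of the 40 genes was 0.39, 1.75, 1.05 and 2.05 in the 4 BLM mice and 3.92, 3.59 and 1.72 in the 3 BLM+HBO mice. The value of BLM+HBO 3 thus lay within the range of the BLM mice, below BLM 2 and BLM 4. Without BLM+HBO 1 the number of genes that passed as higher fell from 31 to 20, and without BLM+HBO 3 it was 34.

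**Figure D1:**
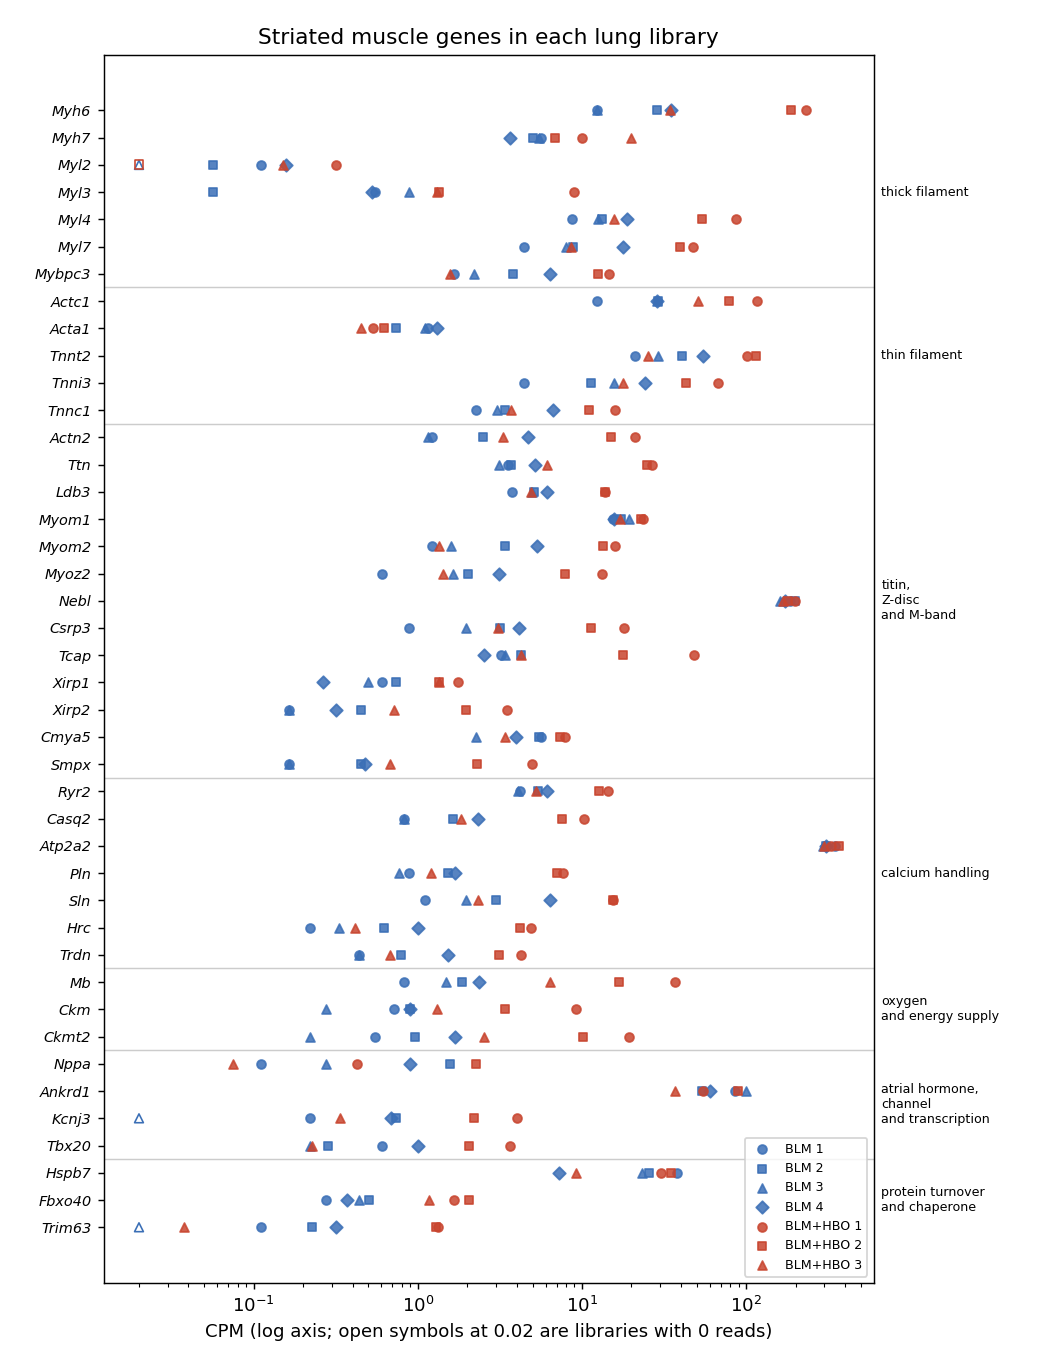
Level of each of the 42 genes in each lung library, in CPM on a log axis, with the genes grouped by role. Blue symbols are the 4 BLM mice and red symbols the 3 BLM+HBO mice, with 1 symbol shape per mouse number and open symbols for libraries with 0 reads. BLM+HBO 1 (red circles) and BLM+HBO 2 (red squares) lay to the right of every BLM mouse for all 31 genes that passed as higher, and BLM+HBO 3 (red triangles) did so for 12 of these.

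Many promoters of muscle genes carry a few short elements. Among them are the CArG box, which serum response factor binds, and the MEF2 motif, named for the MEF2 factors. RefSeq start sites on GRCm38.p6 were at hand for 36 of the 42 genes, and the 250 bases before each were searched on both strands. A CArG box was found at 7 of the 36 genes (19.4%), against 1.62% of the 27025 genes searched in the same way, and a MEF2 motif at 6 of 36 (16.7%), against 3.42%. The elements did not coincide, since no gene of the 36 had both. Such a match describes letters and is neither a site in use nor a cause of any difference.

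The sarcomeric actins are shown first, because they had opposite directions in these mice with the CArG box in both promoters. The 250 bases before their RefSeq start sites run as follows, 5′ to 3′ on the strand of the gene, with capitals marking the CArG box and, at the end of Acta1, also a TATAAA element.
Actc1 (chr2:114052876-114053125, minus strand): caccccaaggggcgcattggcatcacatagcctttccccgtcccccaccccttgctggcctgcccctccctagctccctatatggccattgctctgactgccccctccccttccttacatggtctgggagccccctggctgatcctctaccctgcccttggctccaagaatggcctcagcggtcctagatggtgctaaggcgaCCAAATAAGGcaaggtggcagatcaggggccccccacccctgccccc
Acta1 (chr8:123894776-123895025, minus strand): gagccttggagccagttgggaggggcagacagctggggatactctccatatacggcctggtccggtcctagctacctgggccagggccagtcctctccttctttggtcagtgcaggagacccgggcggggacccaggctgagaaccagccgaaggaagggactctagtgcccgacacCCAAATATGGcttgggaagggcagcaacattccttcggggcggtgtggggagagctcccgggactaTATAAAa

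The other CArG boxes are shown as windows of 30 bases, with the box in capitals, because these genes ranged from no difference (Nebl) to a large one (Myl3).
Myl7 (chr11:5898824-5898853, minus strand): ccattcctctCCTTATTTGGgcctctgggt
Myl3 (chr9:110763583-110763612, plus strand): gagccaatgcCCTTTTATGGccctgtccct
Ldb3 (chr14:34588697-34588726, minus strand): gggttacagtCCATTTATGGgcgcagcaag
Myom1 (chr17:71019448-71019477, plus strand): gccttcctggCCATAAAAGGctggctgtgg
Nebl (chr2:17462999-17463028, minus strand): gctcccatctCCTAAATTGGctggaaatgc

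The MEF2 motifs of 5 genes are shown in the same way, with the motif in capitals, because they occurred in genes of the sarcomere (Ttn, Mybpc3, Xirp2), of calcium storage (Casq2) and of protein turnover (Fbxo40).
Ttn (chr2:76982694-76982723, minus strand): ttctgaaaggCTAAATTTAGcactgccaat
Mybpc3 (chr2:91118044-91118073, plus strand): tggaatttgtCTATATTTAGcaggtggcta
Xirp2 (chr2:67445918-67445947, plus strand): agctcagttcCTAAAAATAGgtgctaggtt
Casq2 (chr3:102086336-102086365, plus strand): attgcatgatTTATTTTTAGctcgaaacaa
Fbxo40 (chr16:36990549-36990578, minus strand): gaacacagggTTATAATTAGagcaagaggc

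Shorter elements were common everywhere. The core of the MCAT element, CATTCC, was found on either strand at 10 of the 36 genes (27.8%), against 14.4% of all genes. The site of the GATA factors, AGATAA, was found on either strand at 8 (22.2% against 11.4%). The E-box, CANNTG, was found at 31 (86.1% against 69.3%). On the strand of the gene, TATAAA was found at 4 genes, Acta1, Nppa, Pln and Trim63 (11.1% against 8.94%). Of the 7 genes with a CArG box, 4 were higher at the thresholds, Acta1 was lower, and Myom1 and Nebl passed in neither direction. Of the 6 with a MEF2 motif, 5 were higher, and Mybpc3 did not pass. Of all tested genes 3.4% were higher and 2.89% lower, and of the whole list 31 of 40 were higher. Since the list was chosen with the contrast known, nothing is read from these counts about the motifs. No promoter was available here for the other 6 genes.

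Thick filament genes were higher in BLM+HBO at the thresholds for 5 of 6 tested, against 3.4% of all tested genes. The roles are parts of a list chosen with the contrast known, so nothing is read from the counts by role. Myh6, the α-cardiac myosin heavy chain that dominates adult mouse heart, had 12.3, 28.5, 12.4 and 34.9 CPM in the 4 BLM mice and 232, 188 and 34.5 CPM in the 3 BLM+HBO mice. BLM+HBO 1 and 2 were far above every other mouse, and BLM+HBO 3 was level with BLM 4. Means were 22 ± 11.4 CPM in BLM (SD, n = 4) and 151 ± 104 CPM in BLM+HBO (SD, n = 3), with a log2 fold change of 2.78 (SE 0.59). Myh7, the β-cardiac and slow skeletal heavy chain, had 5.62, 5.02, 5.49 and 3.63 CPM in the 4 BLM mice and 10.01, 6.89 and 19.9 CPM in the 3 BLM+HBO mice. It was the only one of the 40 genes at its highest in BLM+HBO 3, and the groups did not overlap. Its log2 fold change was 1.32 (SE 0.34) and 0.77 without BLM+HBO 3. The pair lies side by side on the minus strand of chromosome 14 (GRCm38), Myh6 at chr14:54941921-54966927 and Myh7 at chr14:54970684-54994626. About 11% of their 100-base windows of transcript are identical between them (11.4% of Myh6 and 11.2% of Myh7), and reads from those windows may have been left out of both.

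The light chains differed by chamber type. Myl7, the atrial regulatory light chain, had 4.46, 8.79, 7.96 and 17.7 CPM in the 4 BLM mice and 47.2, 39.8 and 8.55 CPM in the 3 BLM+HBO mice, with a log2 fold change of 1.70 (SE 0.56) that no longer passed without BLM+HBO 1 (1.31). Myl4, the atrial essential light chain, had 8.7, 13.3, 12.6 and 18.8 CPM in the 4 BLM mice and 86.6, 54 and 15.6 CPM in the 3 BLM+HBO mice, with a log2 fold change of 1.96 (SE 0.47). In both, BLM+HBO 1 and 2 were above every other mouse, with BLM+HBO 3 inside the range of the BLM mice. Myl2, the ventricular regulatory light chain and one of the most abundant transcripts of heart ventricle, had 2, 1, 0 and 3 reads in the 4 BLM mice and 6, 0 and 4 reads in the 3 BLM+HBO mice. It was therefore at or near 0 in every library, where a count of 0 allows up to 3 reads, or 0.163 CPM in BLM 3 and 0.145 CPM in BLM+HBO 2. Myl3, the ventricular and slow essential light chain, had 0.551, 0.0564, 0.878 and 0.527 CPM in the 4 BLM mice and 9.0, 1.34 and 1.31 CPM in the 3 BLM+HBO mice. BLM+HBO 1 stood apart, and the log2 fold change of 2.92 (SE 0.83) was 1.38 without it and no longer passed. Mybpc3, cardiac myosin-binding protein C, had 1.65, 3.78, 2.2 and 6.42 CPM in the 4 BLM mice and 14.6, 12.5 and 1.57 CPM in the 3 BLM+HBO mice and did not pass (log2 fold change 1.44, SE 0.67), although it did so without BLM 4 (1.91) and without BLM+HBO 3 (1.94).

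Thin filament genes were split between the actins. Actc1, cardiac α-actin, had 12.3, 29.1, 28.6 and 28.6 CPM in the 4 BLM mice and 116, 79.2 and 50.8 CPM in the 3 BLM+HBO mice. All 3 BLM+HBO mice lay above all BLM mice, with means of 24.7 ± 8.22 CPM in BLM (SD, n = 4) and 82.1 ± 32.9 CPM in BLM+HBO (SD, n = 3) and a log2 fold change of 1.73 (SE 0.33). Acta1, skeletal α-actin, had 1.16, 0.733, 1.1 and 1.32 CPM in the 4 BLM mice and 0.532, 0.622 and 0.45 CPM in the 3 BLM+HBO mice. All 3 BLM+HBO mice lay below all BLM mice, but on only 10 to 13 reads against 13 to 25. The log2 fold change of Acta1 was -1.01 (SE 0.38), and leaving out BLM 4 (-0.90), BLM+HBO 1 (-1.01) or BLM+HBO 3 (-0.89) ended the call.

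The troponin complex, which makes contraction sensitive to calcium, was higher in all 3 cardiac subunits at the thresholds by edgeR (3.4% of all tested genes). Tnnt2, cardiac troponin T, had 20.9, 40.9, 29 and 55 CPM in the 4 BLM mice and 101.9, 114 and 25.4 CPM in the 3 BLM+HBO mice and a log2 fold change of 1.14 (SE 0.46). Tnni3, the inhibitory subunit, had 4.41, 11.3, 15.8 and 24.2 CPM in the 4 BLM mice and 67.4, 43.3 and 17.9 CPM in the 3 BLM+HBO mice and a log2 fold change of 1.62 (SE 0.53). In both, BLM+HBO 3 was within the BLM range, as it was for Tnnc1, the calcium-binding subunit of heart and slow muscle (log2 fold change 1.41, SE 0.49). Without BLM+HBO 1 none of the troponin genes passed, with log2 fold changes of 0.93 for Tnnt2, 1.13 for Tnni3 and 0.94 for Tnnc1. Tnnt2 also failed to pass without BLM 1 (0.95), BLM 2 (1.20), BLM 3 (1.05) or BLM+HBO 2 (0.80), nor did it with DESeq2 (1.13), limma (0.96) or robust empirical Bayes (1.14).

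Among 13 genes of titin, the Z-disc and the M-band, 10 were higher at the thresholds (3.4% of all tested genes) and 0 lower (2.89% of all). Ttn, the giant spring of the sarcomere, had 3.52, 3.72, 3.13 and 5.16 CPM in the 4 BLM mice and 26.6, 24.8 and 6.15 CPM in the 3 BLM+HBO mice, and the groups did not overlap (log2 fold change 2.30, SE 0.44). Tcap, which caps titin at the Z-disc, had 3.19, 4.23, 3.4 and 2.53 CPM in the 4 BLM mice and 48.3, 17.7 and 4.27 CPM in the 3 BLM+HBO mice. BLM+HBO 3 was above the BLM mice by a narrow margin, and the log2 fold change of 2.80 (SE 0.63) was 1.71 without BLM+HBO 1. Smpx, a small muscle protein linked to costameres, had 0.165, 0.451, 0.165 and 0.474 CPM in the 4 BLM mice and 4.95, 2.3 and 0.675 CPM in the 3 BLM+HBO mice (log2 fold change 3.03, SE 0.68). Xirp2 had 0.165, 0.451, 0.165 and 0.316 CPM in the 4 BLM mice and 3.51, 1.96 and 0.712 CPM in the 3 BLM+HBO mice (log2 fold change 2.87, SE 0.60). Xirp1, like Xirp2 an actin-binding Xin-repeat protein, had a log2 fold change of 1.49 (SE 0.40). For Smpx, Xirp1 and Xirp2, as for Ttn and Tcap, all BLM+HBO mice lay above all BLM mice.

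In the other Z-disc genes that passed, BLM+HBO 3 overlapped the BLM mice. Actn2, the α-actinin that crosslinks thin filaments, had 1.21, 2.48, 1.15 and 4.69 CPM in the 4 BLM mice and 21, 14.9 and 3.3 CPM in the 3 BLM+HBO mice (log2 fold change 2.45, SE 0.63). Csrp3, the muscle LIM protein, had a log2 fold change of 2.08 (SE 0.59), and Myoz2, a calcineurin-binding Z-disc protein, had 2.01 (SE 0.68). Ldb3, which binds α-actinin, had 1.12 (SE 0.35), and Myom2, an M-band crosslinker, had 1.82 (SE 0.73). Both Myoz2 and Myom2 depended on single mice. Myoz2 did not pass without BLM+HBO 1 (1.31), and Myom2 failed when 1 mouse was left out, whether BLM 1 (1.56), BLM 2 (1.90), BLM 3 (1.62), BLM+HBO 1 (1.35) or BLM+HBO 2 (1.57).

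The remaining 3 genes of the group did not pass. Nebl, which encodes nebulette, a thin filament protein of the Z-disc, had 185, 198, 160.3 and 173 CPM in the 4 BLM mice and 198, 179.5 and 167 CPM in the 3 BLM+HBO mice, with little spread and a log2 fold change of 0.02 (SE 0.11). Myom1, which crosslinks myosin at the M-band, had 15.4, 17.3, 19.3 and 15.6 CPM in the 4 BLM mice and 23.4, 22.7 and 17 CPM in the 3 BLM+HBO mice (log2 fold change 0.32, SE 0.16). Cmya5, which encodes myospryn, a protein of the Z-disc region, had 5.62, 5.47, 2.25 and 3.95 CPM in the 4 BLM mice and 7.88, 7.32 and 3.41 CPM in the 3 BLM+HBO mice (log2 fold change 0.52, SE 0.38). In each of the 3 the groups overlapped. Counts are per gene and do not tell the transcripts of a gene apart, and the exons of Nebl span 15235 bases against 5780 in its principal transcript.

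**Figure D2:**
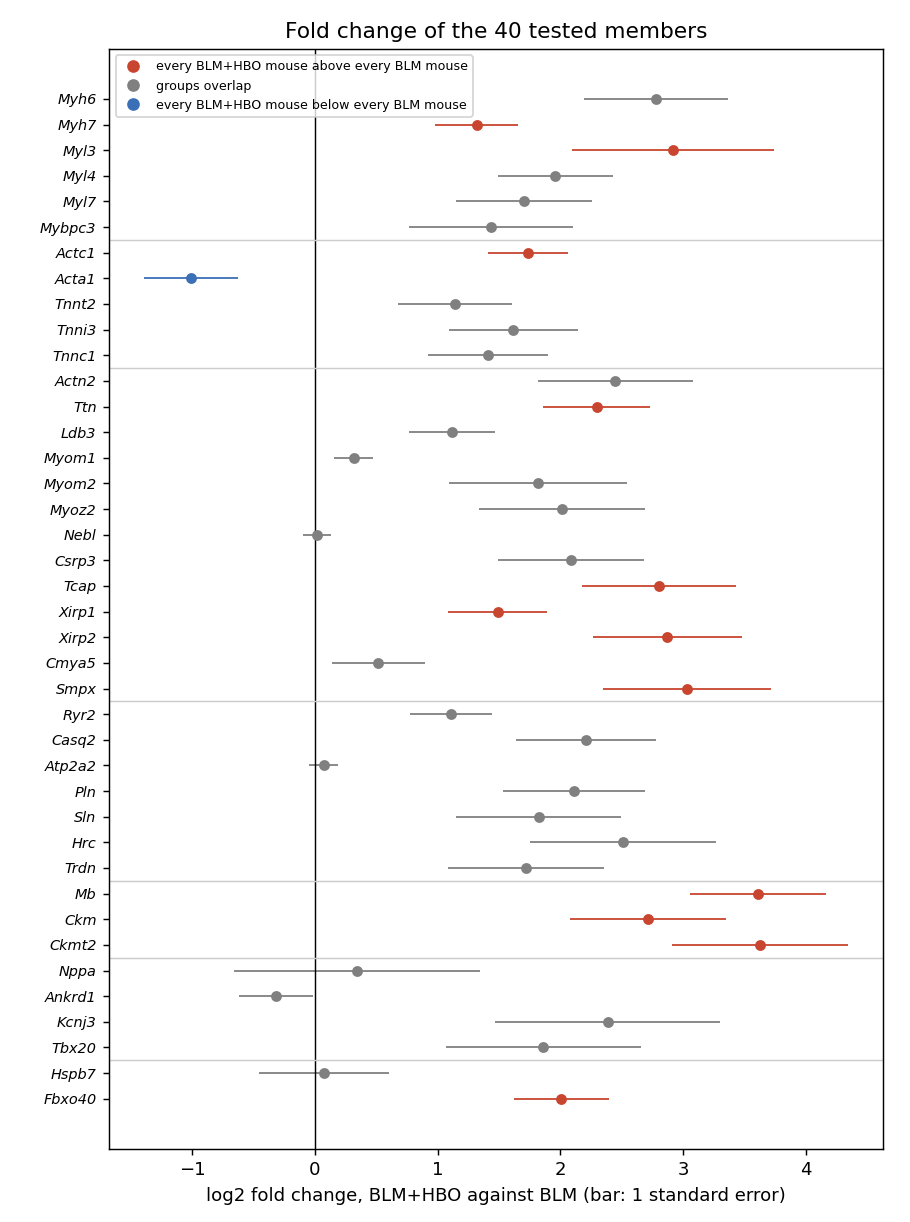
Log2 fold change of the 40 tested genes, BLM+HBO against BLM, from edgeR, with bars of 1 standard error and the genes grouped by role. Red marks the 12 genes in which every BLM+HBO mouse was above every BLM mouse, blue marks Acta1, in which every one was below, and grey marks overlap. The estimates ran from -1.01 for Acta1 to 3.62 for Ckmt2, and those of Nebl, Atp2a2, Hspb7 and Nppa lay within 1 standard error of 0.

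Of 7 calcium-handling genes, 6 were higher at the thresholds (3.4% of all tested genes), none without overlap between the groups (4.05% of all). Ryr2, the cardiac calcium release channel, had 4.18, 5.41, 4.06 and 6.16 CPM in the 4 BLM mice and 14.3, 12.7 and 5.21 CPM in the 3 BLM+HBO mice (log2 fold change 1.11, SE 0.33). Casq2, the cardiac calcium store protein, had 0.826, 1.63, 0.824 and 2.32 CPM in the 4 BLM mice and 10.2, 7.51 and 1.84 CPM in the 3 BLM+HBO mice (log2 fold change 2.21, SE 0.57). In both, BLM+HBO 1 and 2 were above and BLM+HBO 3 inside the range of the BLM mice. Trdn, triadin, which links Casq2 to the release channel, had 1.72 (SE 0.64), and Hrc, another calcium-binding protein of the reticulum, had 2.51 (SE 0.76). Trdn failed to pass when BLM 1 (1.52) or BLM 3 (1.52) was left out, and likewise BLM+HBO 1 (1.22) or BLM+HBO 2 (1.59).

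Sln and Pln encode sarcolipin and phospholamban, small inhibitors of the calcium pump, the first mainly of atrium and the other mainly of ventricle. Sln had 1.1, 2.99, 1.98 and 6.37 CPM in the 4 BLM mice and 15.5, 15.5 and 2.32 CPM in the 3 BLM+HBO mice (log2 fold change 1.82, SE 0.67). Pln had 0.881, 1.52, 0.769 and 1.68 CPM in the 4 BLM mice and 7.61, 7.08 and 1.2 CPM in the 3 BLM+HBO mice (log2 fold change 2.11, SE 0.58). Both showed the same order of mice within BLM+HBO, but 64.7% of the exon bases of Pln are overlapped by genes on the opposite strand (Cep85l and Gm47644), and the counting used no strand. Reads in the shared part would have been left out as belonging to more than 1 gene. Leaving out BLM 1 (1.54), BLM 3 (1.66), BLM+HBO 1 (1.51) or BLM+HBO 2 (1.5) ended the call for Sln. The pump itself, Atp2a2, which is also expressed outside muscle, had 349, 305, 294 and 309 CPM in the 4 BLM mice and 327, 366 and 298 CPM in the 3 BLM+HBO mice. It took more reads than any other of the 42 genes and hardly differed, with a log2 fold change of 0.07 (SE 0.12).

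The 3 genes of oxygen and energy supply were higher with no overlap between the groups, against 4.05% of all tested genes. Mb, myoglobin, which stores oxygen in heart and oxidative muscle, had 0.826, 1.86, 1.48 and 2.37 CPM in the 4 BLM mice and 37.1, 16.9 and 6.41 CPM in the 3 BLM+HBO mice. Means were 1.63 ± 0.65 CPM in BLM (SD, n = 4) and 20.1 ± 15.6 CPM in BLM+HBO (SD, n = 3), a log2 fold change of 3.61 (SE 0.55). Ckmt2, the mitochondrial creatine kinase of the sarcomere, had 0.551, 0.958, 0.22 and 1.68 CPM in the 4 BLM mice and 19.4, 10.1 and 2.51 CPM in the 3 BLM+HBO mice, with means of 0.853 ± 0.631 CPM in BLM (SD, n = 4) and 10.7 ± 8.45 CPM in BLM+HBO (SD, n = 3) and a log2 fold change of 3.62 (SE 0.72). These were the 2 largest log2 fold changes of the 40. Ckm, the cytosolic muscle creatine kinase, had 0.716, 0.902, 0.275 and 0.895 CPM in the 4 BLM mice and 9.21, 3.4 and 1.31 CPM in the 3 BLM+HBO mice (log2 fold change 2.71, SE 0.64). BLM+HBO 3 was again the lowest of its group for all 3, but it stood above every BLM mouse. Genes on the opposite strand overlap 31.9% of the exon bases of Mb and 15.5% of those of Ckm, and those of Ckmt2 by less than the 10% limit used here.

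The atrial and regulatory genes were mixed, with 2 of 4 higher at the thresholds (3.4% of all tested genes). Nppa, which encodes the atrial natriuretic peptide, had 2, 28, 5 and 17 reads in the 4 BLM mice and 8, 47 and 2 reads in the 3 BLM+HBO mice. No order by group was seen, the log2 fold change was 0.34 (SE 1.0), and 61.5% of its exon bases are overlapped by a gene on the opposite strand. Kcnj3, a subunit of the acetylcholine-activated potassium channel of the atrium, had 0.22, 0.733, 0 and 0.684 CPM in the 4 BLM mice and 4.05, 2.2 and 0.337 CPM in the 3 BLM+HBO mice (log2 fold change 2.39, SE 0.92). It did not pass without BLM 1 (2.18) or BLM+HBO 1 (1.60). Tbx20, a cardiac T-box transcription factor, had 0.606, 0.282, 0.22 and 1.0 CPM in the 4 BLM mice and 3.62, 2.06 and 0.225 CPM in the 3 BLM+HBO mice (log2 fold change 1.86, SE 0.80), and it failed to pass when 1 mouse was left out, whether BLM 1 (1.93), BLM 2 (1.66), BLM 3 (1.61), BLM+HBO 1 (1.07) or BLM+HBO 2 (1.82). Ankrd1, a stretch-responsive ankyrin repeat protein, had 85.7, 53.9, 100.3 and 60.6 CPM in the 4 BLM mice and 54.7, 89.3 and 37 CPM in the 3 BLM+HBO mice. The groups overlapped, with a log2 fold change of -0.32 (SE 0.30).

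Of the genes of protein turnover and chaperoning, Fbxo40, a muscle F-box protein, had 0.275, 0.507, 0.439 and 0.369 CPM in the 4 BLM mice and 1.65, 2.06 and 1.16 CPM in the 3 BLM+HBO mice (log2 fold change 2.01, SE 0.39), without overlap. Trim63, the ubiquitin ligase MuRF1, had 2, 4, 0 and 6 reads in the 4 BLM mice and 25, 27 and 1 reads in the 3 BLM+HBO mice, and did not pass the filter on low counts. As in most other genes, BLM+HBO 3 fell among the BLM mice for Trim63. Hspb7, a small heat shock protein of heart, had 38.1, 25.5, 23.2 and 7.21 CPM in the 4 BLM mice and 30.5, 34.8 and 9.19 CPM in the 3 BLM+HBO mice (log2 fold change 0.08, SE 0.53). Its level varied more within each group than between them.

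Levels per deposited exon length were highest for a handful of genes. On the RPKM scale (reads scaled to exon length and library size) the mean of Atp2a2 was 51.6 RPKM in BLM and 54.4 RPKM in BLM+HBO. Myl7 averaged 16.5 RPKM in BLM and 54 RPKM in BLM+HBO, and Actc1 averaged 15.2 RPKM in BLM and 50.8 RPKM in BLM+HBO. On this scale these 3 were the highest of the 42 in BLM+HBO, and Atp2a2 and Ankrd1 (26 RPKM) the highest in BLM. The ranks depend on the length used. The deposited exon length is 7752 bases for Tnnt2 and 4637 for Myl4, whose principal transcripts have 1200 and 943 bases. For Myl7 both lengths are 590 bases. The values of Tnnt2 (10.4 RPKM in BLM+HBO) and Myl4 (11.2 RPKM) are therefore not comparable with that of Myl7. Ttn averaged 0.0331 RPKM in BLM and 0.163 RPKM in BLM+HBO, spread over an exon length of 117334 bases. Summed over the 42 genes, the libraries held 749 to 827 CPM in the BLM mice and 763 to 1644 CPM in the BLM+HBO mice. The sum of the 3 oxygen and energy genes was 1.98 to 4.95 CPM in the BLM mice and 10.2 to 65.6 CPM in the BLM+HBO mice.

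Atrial light chains exceeded their ventricular partners. Shares were taken within a pair of related genes after division by exon length, per mouse. Of Myl7 and Myl2, Myl7 made up between 99.3% and 100% in every mouse, with means of 99.7% ± 0.315 in BLM (SD, n = 4) and 99.8% ± 0.266 in BLM+HBO (SD, n = 3). Of Myl4 and Myl3, Myl4 made up 87.4, 99, 86.3 and 94% in the 4 BLM mice and 80.9, 94.7 and 83.9% in the 3 BLM+HBO mice. This share depends on the length used, here 4637 bases for Myl4 and 2044 for Myl3. The principal transcripts have 943 and 937 bases, so the deposited lengths lower the share of Myl4. Of Sln and Pln, Sln made up 81.5% ± 6.97 in BLM (SD, n = 4) and 81.1% ± 0.914 in BLM+HBO (SD, n = 3), a difference smaller than the spread between BLM mice. The atrial partner led in both light chain pairs in all 7 mice. The share of Sln is uncertain, because reads left out in the overlapped part of Pln would raise it. Not every atrial gene had many reads, since Nppa, abundant in the atria of the heart, had 2 to 47. Its count is uncertain in the same way, because 61.5% of its exon bases are overlapped by a gene on the opposite strand.

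The heavy chain share varied more between mice. Of Myh6 and Myh7, Myh6 made up 73.8, 87.9, 74.3 and 92.5% in the 4 BLM mice and 96.7, 97.2 and 68.9% in the 3 BLM+HBO mice. Means were 82.1% ± 9.51 in BLM (SD, n = 4) and 87.6% ± 16.2 in BLM+HBO (SD, n = 3), a difference smaller than the spread between mice, and the lowest share was in BLM+HBO 3. Of Actc1 and Acta1, Actc1 made up 91, 97.4, 96.1 and 95.4% in the 4 BLM mice and 99.5, 99.2 and 99.1% in the 3 BLM+HBO mice. All BLM+HBO mice lay above all BLM mice, and the SD was 2.78 in BLM and 0.233 in BLM+HBO.

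Against skeletal partners, the cardiac gene held most of the pair on average in BLM+HBO, apart from Mybpc3. Of Tnni3 and Tnni2, Tnni3 made up 78.6% ± 7.87 in BLM (SD, n = 4) and 93% ± 3.31 in BLM+HBO (SD, n = 3). Of Actn2 and Actn3, Actn2 made up 67.5% ± 14.4 in BLM (SD, n = 4) and 90.4% ± 9.45 in BLM+HBO (SD, n = 3). Of Ryr2 and Ryr1, Ryr2 made up 66.9% ± 9.47 in BLM (SD, n = 4) and 74.9% ± 5.5 in BLM+HBO (SD, n = 3). Of Casq2 and Casq1, Casq2 made up 37.3, 32, 22.4 and 50.3% in the 4 BLM mice and 80.1, 76.2 and 38.4% in the 3 BLM+HBO mice. Of Mybpc3 and Mybpc2, Mybpc3 made up 37.7, 27, 26.3 and 26.1% in the 4 BLM mice and 63.9, 60.6 and 11.9% in the 3 BLM+HBO mice. For Casq2 and Mybpc3 the cardiac gene was the smaller part in most BLM mice and in BLM+HBO 3, and the larger part in BLM+HBO 1 and 2. Reads of Casq1 summed to 130 in BLM and 125 in BLM+HBO, whereas those of Casq2 summed to 103 and 398. Tnnc2 and Myh4, of fast skeletal fibres, had no more than 1 read in any mouse.

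**Figure D3:**
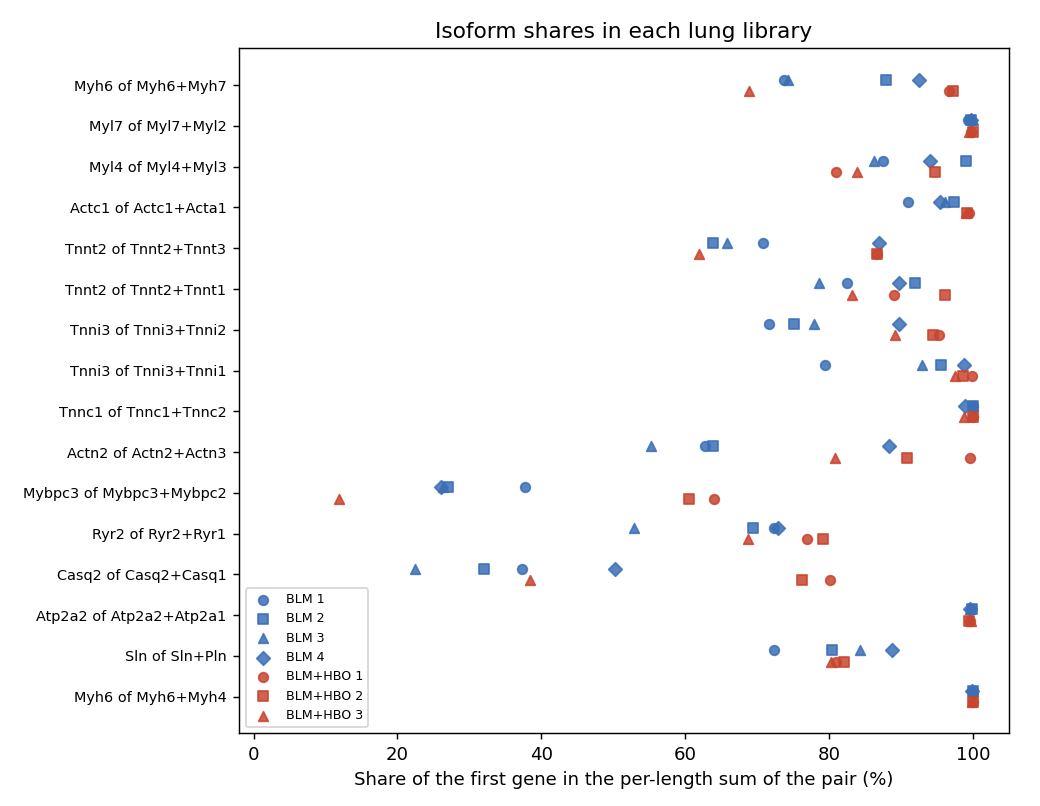
Share of the first gene of each pair in the per-length sum of the pair, in percent, with 1 symbol per mouse (blue, BLM, red, BLM+HBO). Myl7 stayed between 99.3% and 100% of Myl7 and Myl2 in every mouse. Actc1 was at 99.1% to 99.5% of the actin pair in the BLM+HBO mice and at 91.0% to 97.4% in the BLM mice.

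The proportions among the genes held better than their levels. The SD of log2 CPM over the 7 mice had a median of 1.30 over the 40 genes, and 0.55 once the median of the 40 in the same mouse was subtracted. It became smaller in 31 of the 40. Part of this is built in, because the subtracted median comes from the same genes. The SD that remained was smallest for Csrp3 (0.20), Casq2 (0.23), Myl7 (0.27) and Myl4 (0.27). It was largest for Acta1 (1.65), Hspb7 (1.49), Ankrd1 (1.46), Myl3 (1.39) and Myh7 (1.34). It grew for genes with flat levels, such as Nebl (0.12 before and 1.24 after) and Atp2a2 (0.12 before and 1.24 after).

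Counting against a single atrial gene shows the proportions directly. These ratios were looked at after the values were known, and they carry no test. Myl4 had 195, 151, 158 and 106 reads in the 4 BLM mice and 183, 136 and 182 reads in the 3 BLM+HBO mice per 100 reads of Myl7. Sln had 24.7, 34, 24.8 and 35.9 reads in the 4 BLM mice and 32.8, 38.8 and 27.2 reads in the 3 BLM+HBO mice per 100 reads of Myl7. Tnnc1 had 50.6, 38.5, 37.9 and 37.4 reads in the 4 BLM mice and 33.8, 27.8 and 43.4 reads in the 3 BLM+HBO mice per 100 reads of Myl7. In these 3 the groups overlapped, although the level of Myl7 itself ranged from 4.46 to 47.2 CPM. Other genes varied more relative to Myl7, so these 3 do not stand for all. Myh7 had 20.5 to 126 reads in BLM and 17.3 to 233 reads in BLM+HBO per 100 reads of Myl7. Actc1 had 161 to 359 reads in BLM and 199 to 594 reads in BLM+HBO.

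A few genes, Mb, Ckmt2, Myh6, Actn2, Smpx and Casq2, were higher relative to Myl7 in every BLM+HBO mouse, BLM+HBO 3 included. In most of the genes set against Myl7 the groups overlapped. The genes were picked after the values were seen and no share over all genes was taken, so nothing is read from how many differed. Smpx had passed the filter only through the BLM+HBO mice. For Casq2 and Smpx the margin was narrow. The highest BLM and lowest BLM+HBO values were 18.6 and 18.9 reads for Casq2 and 5.13 and 5.77 reads for Smpx per 100 reads of Myl7. Little can be read from these 2 genes. Mb had 18.5, 21.2, 18.6 and 13.4 reads in the 4 BLM mice and 78.5, 42.4 and 75 reads in the 3 BLM+HBO mice per 100 reads of Myl7. Ckmt2 had 12.3, 10.9, 2.76 and 9.5 reads in the 4 BLM mice and 41, 25.4 and 29.4 reads in the 3 BLM+HBO mice per 100 reads of Myl7. For both, the level relative to Myl7 was no lower in BLM+HBO 3 than in BLM+HBO 2. Myh6 had 277, 324, 156 and 196 reads in the 4 BLM mice and 492, 471 and 404 reads in the 3 BLM+HBO mice per 100 reads of Myl7. By contrast, Tnnt2 was lower relative to Myl7 in every BLM+HBO mouse, at 216 to 297 against 309.8 to 469 reads per 100 Myl7 reads in BLM.

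**Figure D4:**
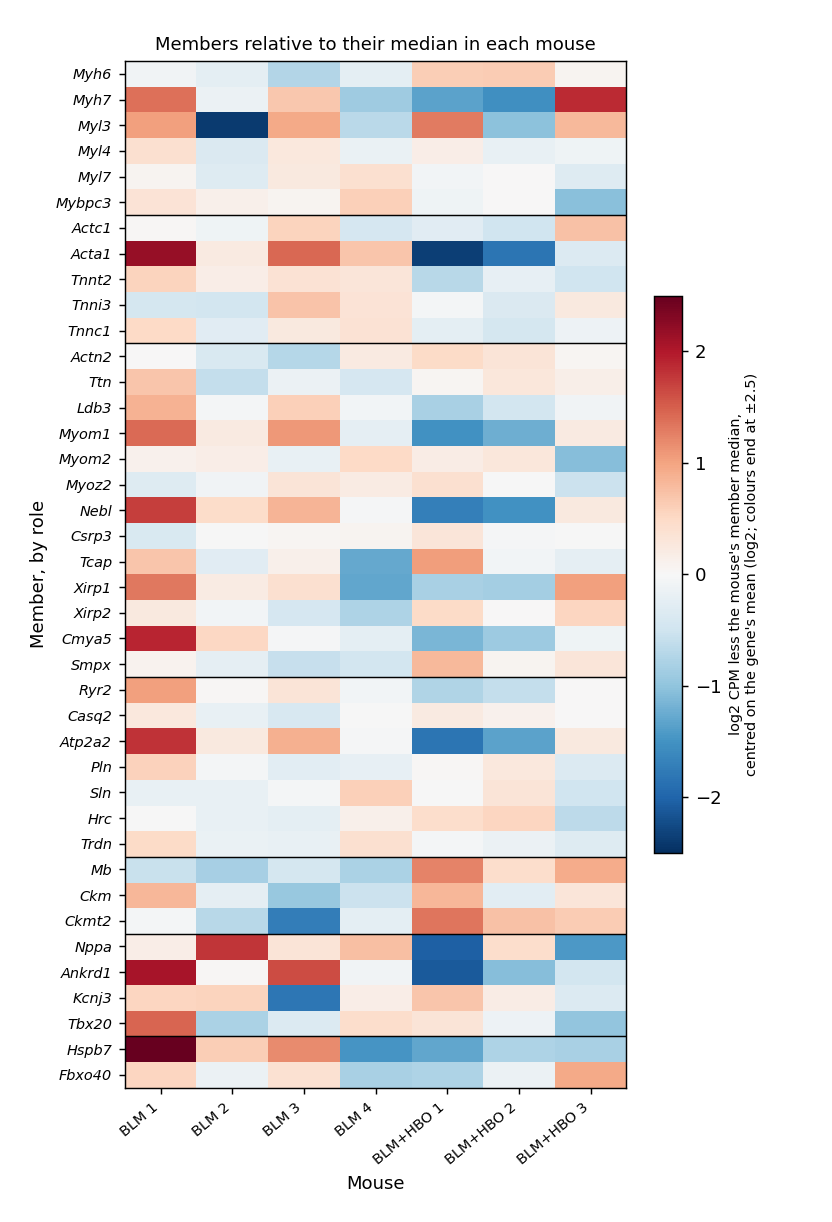
Log2 CPM of each of the 40 tested genes less the median of the 40 in the same mouse, centred on the mean of the gene over the 7 mice. Columns are mice, lines group the genes by role, and red and blue mark values above and below the mean of the gene on the log2 scale. Mb and Ckmt2 were above their mean in all 3 BLM+HBO mice, and Nebl and Atp2a2 were below theirs in BLM+HBO 1 and 2, the mice with the highest median.

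Other heart muscle genes were looked at next, also from a list written with results of these mice known. Of 40 such genes outside the first list, 34 were tested and 20 were higher at the thresholds (3.4% of all genes), with a median log2 fold change of 0.82. Without BLM+HBO 1 this number was 11. The largest differences were in Mybphl, which encodes an atrial myosin-binding protein (log2 fold change 2.62, SE 0.69), Lmod2, a thin filament length regulator (log2 fold change 2.22, SE 0.71), and Art1, an ADP-ribosyltransferase of muscle (log2 fold change 2.11, SE 0.69). Tnni3k, a cardiac kinase, was also among the 5 with the largest differences (log2 fold change 1.88, SE 0.49). Mybphl had 0.22, 2.25, 1.21 and 1.68 CPM in the 4 BLM mice and 14.3, 8.42 and 2.25 CPM in the 3 BLM+HBO mice. Tnni3k had 0.33, 0.169, 0.384 and 0.527 CPM in the 4 BLM mice and 1.92, 1.34 and 0.75 CPM in the 3 BLM+HBO mice. BLM+HBO 3 was the lowest of its group in both, above all BLM mice for Tnni3k. One gene of this list was lower, Myocd, a coactivator of serum response factor in heart and smooth muscle (log2 fold change -0.94, SE 0.39), named here because it was the only one. Irx4, a ventricular transcription factor, had 3 reads in BLM+HBO 3 and 0 in the other 6 mice.

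Skeletal fibre genes were counted next. Of 29, 13 had enough reads to be tested. At the thresholds 1 was higher (3.4% of all tested genes) and 0 lower (2.89% of all), with a median log2 fold change of 0.12. The gene that passed was Myl1, the fast skeletal essential light chain, with 0.22, 0.169, 0.659 and 0.895 CPM in the 4 BLM mice and 2.13, 1.63 and 0.525 CPM in the 3 BLM+HBO mice (log2 fold change 1.52, SE 0.64). It no longer passed when BLM 2, BLM+HBO 1 or BLM+HBO 2 was left out. The 29 genes summed to 20.4 to 33.9 CPM in the BLM mice and 29.5 to 32.3 CPM in the BLM+HBO mice. Myh1, a fast heavy chain, had 5, 6, 7 and 11 reads in the 4 BLM mice and 1, 3 and 1 reads in the 3 BLM+HBO mice. Pax7, of muscle stem cells, had 0, 1, 0 and 0 reads in the 4 BLM mice and 2, 6 and 6 reads in the 3 BLM+HBO mice. Myod1, the myogenic regulator, had 0 reads in the BLM mice and 1, 0 and 3 in the 3 BLM+HBO mice. These 3 had at most 11 reads in any library, whereas other genes of the list had more reads, among them Mybpc2, the fast myosin-binding protein C, with 43, 157, 97 and 300 reads in the 4 BLM mice and 134, 148 and 270 reads in the 3 BLM+HBO mice. Tnnt3, fast troponin T, had 32, 84, 56 and 32 reads in the 4 BLM mice and 60, 75 and 85 reads in the 3 BLM+HBO mice.

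Smooth muscle genes, which mark airway and vessel walls and, for Acta2, myofibroblasts, were counted as well. Of 12 tested, 0 were higher (3.4% of all tested genes) and 1 was lower (2.89% of all), with a median log2 fold change of -0.09. The lower one was Acta2, smooth muscle α-actin, with 457, 410, 439 and 290.2 CPM in the 4 BLM mice and 178, 314 and 215 CPM in the 3 BLM+HBO mice (log2 fold change -0.76, SE 0.22). The 12 genes summed to 941 to 1237 CPM in the BLM mice and 849 to 1085 CPM in the BLM+HBO mice.

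Markers of other tissues that a lung sample can hold were counted in the same libraries. Of all tested genes, 3.4% were higher at the thresholds and 2.89% lower, the shares to set beside each list below. Among 12 lung markers, 2 were higher at the thresholds (Sftpa1, log2 fold change 0.79, SE 0.31, and Scgb1a1, log2 fold change 0.73, SE 0.32) and 0 lower. Of 6 mesothelial markers, 0 were higher and 2 lower (Wt1, log2 fold change -1.36, SE 0.54, and Msln, log2 fold change -1.23, SE 0.47), and the 6 summed to 642 to 1099.8 CPM in the BLM mice and 381 to 729 CPM in the BLM+HBO mice. Of 8 adipose markers 3 were tested, of 8 thymus markers 2, of 8 ganglion and nerve markers 3 and of 6 erythroid markers 6, and 0 passed in either direction. The sums were 2.75 to 6.65 CPM in the BLM mice and 3.51 to 6.9 CPM in the BLM+HBO mice for adipose tissue. For thymus they were 7.16 to 13.1 CPM in the BLM mice and 9.79 to 15.3 CPM in the BLM+HBO mice. Most of the thymus sum in every mouse was Cd8b1 and Ccl25, the 2 tested, so it does not stand for the other thymus markers. For ganglion and nerve the sums were 2.86 to 6.04 CPM in the BLM mice and 4.74 to 8.41 CPM in the BLM+HBO mice. For red cells they were 1413 to 3538 CPM in the BLM mice and 1849 to 3237 CPM in the BLM+HBO mice.

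Of 5 squamous and oesophageal markers, 1 was tested, Krt14, and it was lower (log2 fold change -2.44, SE 0.87), with a sum of the 5 of 3.32 to 8.48 CPM in the BLM mice and 0.532 to 3.02 CPM in the BLM+HBO mice. Ucp1, of brown fat, had at most 6 reads, Dntt, of thymocytes, at most 8 and Krt13, of squamous epithelium, at most 9. The ranges of the groups overlapped in each of these sums except that of the squamous markers, which was lower in BLM+HBO. In the BLM mice most of that sum was Krt14, at 7.21, 3.44, 5.60 and 2.37 CPM. Krt14 had 0.0532, 2.30 and 0.225 CPM in the 3 BLM+HBO mice. Krt13 did not follow it, with 1, 0, 1 and 3 reads in BLM and 5, 0 and 9 reads in BLM+HBO. The sum thus does not stand for each of the 5 markers. The amount of heart muscle or vein in each sample is not in the labels, and its part in the differences of the striated genes was not tested.

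Restricting the list to the 33 genes with less than 10% of their exon bases overlapped by another gene and no shared window left 31 tested. Of these, 25 were higher at the thresholds, against 3.4% of all tested genes. Since the list was chosen with the contrast known, nothing is read from this share. The 9 genes left out were Myh6, Myh7, Cmya5, Atp2a2, Pln, Mb, Ckm, Nppa and Kcnj3.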

How the data were processed

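Lung RNA of 4 BLM and 3 BLM+HBO mice was sequenced from NEBNext Ultra libraries. The authors used Trim Galore for trimming, HISAT2 (2.2.0 in the submitters' processing notes) for mapping to GRCm38 and featureCounts for the deposited raw read counts per gene. Its default settings ignore the strand and drop reads with more than 1 location or gene. The deposited counts are not normalized. The annotation release is not given in the sources used here. The deposited exon length was used for RPKM. Symbols came from GENCODE vM21 (55141 of 55401 genes).

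The filter was filterByExpr (count of 10, total of 15), which left 17465 genes, and the scaling was TMM. The test was edgeR 4.0.16's quasi-likelihood test under R 4.3.3 with Benjamini-Hochberg adjustment. CPM used the TMM-scaled totals, and log2 CPM a prior count of 2. DESeq2 1.42.0 and limma 3.58.1 were alternatives. The test was run on simulated counts that gave every gene the same relative spread between mice. That run does not speak to genes with few reads or a wider spread. Each mouse was 1 replicate, since the chi-square per gene between libraries of 1 group was 22.1 or more. P-values measure only the spread between these mice. Floors cover counting error only.

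The 42 genes, the other lists and the thresholds were chosen with earlier results of these data known. Any of the 42 could be named. Genes of other lists were named if they were a partner in a pair, among the 5 with the largest absolute log2 fold change of their list, or a defining marker. Promoters came from RefSeq on GRCm38.p6, and only the 250 bases before each start were used. Proteins were not used here. One gene of each of 2 lists and 1 promoter sequence are not reported here.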

Additional observations from a re-analysis of the deposited data

Results flagged for a closer look

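In each group of 4 mice, a mouse was singled out where its gap to the nearest other mouse took up an unusually large part of the whole range of the group (Dixon's ratio above its critical value). This was examined in 57 groups of values and met in 5, and chance alone gives about 1 in 20. Groups of 3, and so all of BLM+HBO, were not examined. Actc1 was low in BLM 1, at a log2 CPM of 3.64 against 4.84 to 4.87 in the other 3 BLM mice (ratio 0.981). The share of Mybpc3 in the sum of Mybpc3 and Mybpc2 was high in BLM 1, at 37.7% against 26.1% to 27.0% (ratio 0.919). The share of Tnnc1 against Tnnc2 was 99.0% in BLM 4 and 100% in the others (ratio 1), which rests on 1 read of Tnnc2. The share of Myh6 against Myh4 was 99.8% in BLM 4 and 100% in the others (ratio 1), which rests on 1 read of Myh4. In depth, BLM 4 stood slightly apart with 19002242 counts, where the rest of its group had 18436336 to 18452895 (ratio 0.971).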

How the results depend on the processing

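The 31 genes that passed as higher became 20 at an unadjusted P below 0.01 and 20 to 34 with 1 mouse left out, the 20 without BLM+HBO 1. With DESeq2, limma, other scaling factors, other filters, robust empirical Bayes or a fold change above 2 their number stayed within 1.5 times of 31. The 1 lower gene became 0 without a filter on low counts, 0 at P below 0.01 and 0 to 2 with 1 mouse left out. The 0 genes at an adjusted P below 0.05 became 14 with DESeq2, 27 without a filter and 0 to 2 with 1 mouse left out. The median log2 fold change was 1.37 to 2.30 with 1 mouse left out. The 20 other heart genes became 11 to 19 with 1 mouse left out. The 1 skeletal gene became 2 with DESeq2, limma, upper-quartile factors or no filter, and 0 to 1 with 1 mouse left out. The 1 lower smooth muscle gene became 1 to 2 with 1 mouse left out, the 2 without BLM 4. The causes were not tested.

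Replicate numbers were shared between the groups, and nothing in the labels says that they pair the mice. The correlations of same-numbered mice were -0.01, -0.07 and 0.16, within the -0.18 to 0.17 of differently numbered mice. With so few mice these values cannot settle whether the numbers pair them. With the number as a replicate block, 31 genes were higher, 0 lower and 0 passed an adjusted P of 0.05, the median was 1.97, 0 skeletal genes were higher and 2 smooth muscle genes lower.

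For single genes, 536 values under an alternative kept direction and side of the threshold, 41 fell below it, 5 came above it and 10 turned in sign. The 10 belonged to Hspb7 (4, of them -0.39 under the replicate block), Nppa (3, of them -0.0043 by limma), Nebl (2) and Atp2a2 (1), the others with 1 mouse left out. With 1 mouse left out the log2 fold change ran from -1.58 to 0.91 for Nppa, from -0.25 to 0.47 for Hspb7, from -0.0503 to 0.0688 for Nebl and from -0.00752 to 0.14 for Atp2a2. None of these 4 had passed. Shares depended on the length used. From raw counts the share of Myl7 was 99.0% in BLM and 99.2% in BLM+HBO, and that of Sln 68.2% and 67.2%. With the principal transcript, chosen after seeing the data, Myl7 was at 99.3% and 99.5%, and Sln at 78.4% in BLM+HBO. The share of Myh6 in BLM+HBO was 82.8% to 97.0% with 1 mouse left out. Genes with few reads (Acta1, Nppa, Trim63, Myl2) are limited by counting.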
